A study of Mus musculus with 15 samples.

Results

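Chemokines and chemokine receptors were followed in laser microdissected colon adenomas and normal colon epithelium of mice that carry the Apc Min mutation. The members were all non-control spots whose gene name in the scanner files begins with Ccl, Cxcl, Xcl, Cx3c, Cxcr or Xcr, or is Ccr followed by a digit. The rule found 76 of 43379 spots, which make up 67 of 41174 probes and 51 of 27670 genes. Of these genes, 35 encode ligands and 16 encode receptors. The files use older names for 3 of them, Cxcl4 (Pf4), Cxcl7 (Ppbp) and Ccl27 (Ccl27a). The rule leaves out chemokine genes that the array names otherwise, such as Il8rb (Cxcr2), the receptor of several ligands described here; these were read as related genes.

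Chemokines are small secreted proteins that bind receptors with a seven-helix, G protein-coupled fold and guide the migration of leukocytes along a gradient. Inflammatory chemokines are induced in epithelial, stromal and myeloid cells by cytokines such as interleukin 1 and tumor necrosis factor, largely through NF-kappaB, while homeostatic chemokines are made steadily and place lymphocytes in lymphoid tissue and mucosa. In the colon, Ccl28 is a product of the normal surface epithelium that draws antibody-secreting plasma cells through Ccr10, and the ligands of Cxcr2 draw neutrophils.

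Male Apc+/Min-FCCC mice on a C57BL/6J background were examined by colonoscopy at 6 to 8 weeks of age and then kept on their diets for 7 days. Treated adenomas (4 arrays) came from tumor-bearing mice whose chow held 300 ppm sulindac, an inhibitor of cyclooxygenases, and 100 ppm atorvastatin, a statin. Untreated adenomas (3 arrays) came from tumor-bearing mice on plain chow. Normal epithelium came from tumor-bearing mice (4 arrays) and from tumor-free mice (4 arrays), both labelled as given 100 ppm atorvastatin alone. The protocol text names only plain chow and the drug pair for tumor-bearing mice, so the diet of the tumor-bearing epithelium rests on its labels. All mice carried the mutant Apc allele, and there was no epithelium from untreated mice, so a difference between adenoma and epithelium cannot be told apart from the difference in drugs.

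Each level is a log2 intensity minus the 75th percentile of its array, and levels of different probes are not on a common scale. The share of probes with a signal well above background was 56.5% to 75.5%, depending on the array. Within groups, 6 array pairs lay closer together than their spot noise allows for (an SD of the log2 difference of 0.08 to 0.17, against a noise of 0.19 to 0.22) and were counted as 1 sample, while the 15 other pairs differed by 0.59 to 1.11. This left 10 samples. Values are given in a fixed order of samples. For treated adenoma they are array 1 and the mean of arrays 2, 3 and 4. For untreated adenoma they are the mean of arrays 1 and 2 and array 3. For tumor-bearing epithelium they are the mean of arrays 1 and 3, array 2 and array 4, and for tumor-free epithelium array 1, array 2 and the mean of arrays 3 and 4. Array 2 of the tumor-bearing and array 2 of the tumor-free epithelium differed by 0.18, just above their noise of 0.177. The other pairs across these groups differed by at least 0.61. Although the 2 arrays carry different labels, they are called the near-identical pair below. The total counts of called members against tumor-bearing epithelium are therefore given without this pair too. The counts by role, by marker list and of samples that do not overlap include it. Flags for outlying pixels took out 9.12% of the spots of 1 untreated adenoma array (array 2) and 7.81% of those of 1 epithelium array (tumor-bearing, array 1). The arrays were scanned on 6 dates.

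The epithelial label was checked against 9 epithelial marker genes on the array, and each was above background on at least 1 array of every group. Their summed intensity, in multiples of the array's 75th percentile, was 331 to 543 in treated adenomas, 393 to 463 in untreated adenomas, 427 to 803 in tumor-bearing epithelium and 510 to 674 in tumor-free epithelium. Markers of other cells were measured as well, so the dissected material was not purely epithelial. In bulk samples of this kind, fewer cells of a type and less RNA per cell cannot be told apart.

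Of the 51 members, 24 were well above background on all 15 arrays, 27 on 1 to 14 and 0 on none, and no member was saturated. Ccl1, Ccl22, Ccr1l1, Ccr3, Ccr4, Ccr8 and Cxcl15, 7 members in all, were not above background throughout any group they were compared in and entered no test. Ccr4 and Ccr8 passed background on 1 array each. The members are set side by side in the map of levels.

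**Figure D1:**
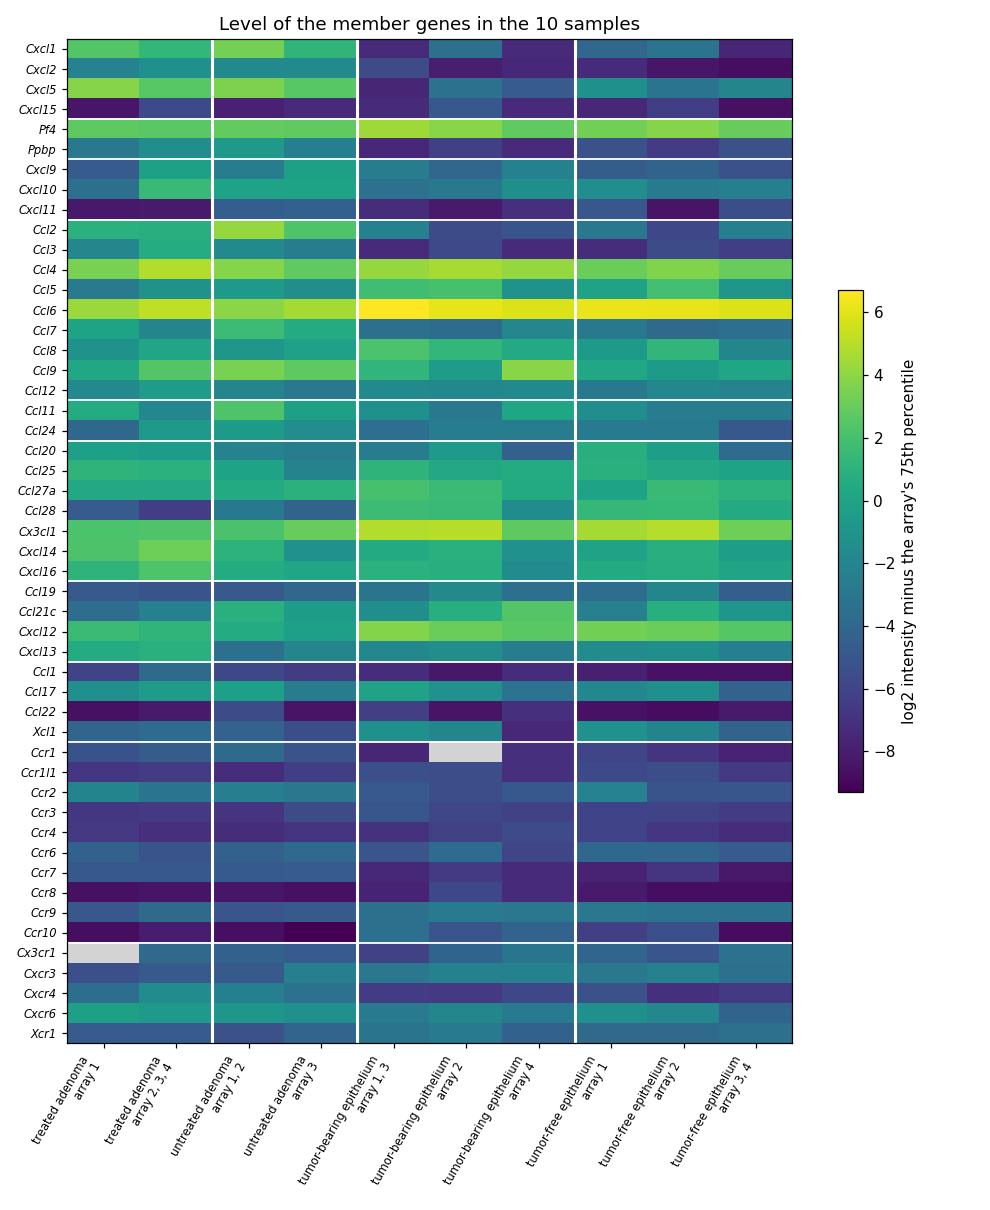
Level of the member genes (rows, grouped by role and separated by white lines) in the 10 samples (columns, in the order treated adenoma, untreated adenoma, tumor-bearing epithelium, tumor-free epithelium). Colour gives the log2 intensity minus the array's 75th percentile, and grey marks a sample left out for an outlier flag (Ccr1 and Cx3cr1, 1 sample each). The rows of Cxcl1, Cxcl2, Cxcl5, Ppbp, Ccl2 and Ccl3 are brighter in the 4 adenoma samples than in the 6 epithelium samples, while the row of Ccl28 is darker in adenoma than in epithelium.

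Adenomas were first set against the normal epithelium of tumor-bearing mice, the comparison that asks which chemokines mark the tumor. Against tumor-bearing epithelium, 14 of 43 tested members passed the threshold in treated adenomas, where 13.6% of all 16969 genes tested did. In untreated adenomas 17 of 44 tested members passed, where 12.0% of 17365 genes did (limma, Benjamini-Hochberg adjusted p under 0.05). In treated adenomas 10 members were higher and 4 lower, beside 6.61% and 7.03% of all genes. In untreated adenomas 12 were higher and 5 lower, beside 5.32% and 6.64% of all genes. Both comparisons use the same epithelium samples, so their calls are not independent of each other; 12 members were called in both. In treated adenomas the ligands gave 7 higher and 2 lower of 31 tested and the receptors 3 higher and 2 lower of 12. In untreated adenomas the ligands gave 8 higher and 3 lower of 32 and the receptors 4 higher and 2 lower of 12. The median log2 difference over the members tested was 0.58 in treated and 0.16 in untreated adenomas, against -0.08 and -0.13 over all genes tested. The counts by role, of related genes and of markers below are to be read beside the shares of all genes called. These were 13.6% in treated and 12.0% in untreated adenomas, which 1 call can reach in a short list.

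With both adenoma groups set against both epithelia, 9 of 42 members had all 4 adenoma samples above all 6 epithelium samples, beside 7.18% of 18702 genes. Among them were Ccl2, Ccl3, Ccr7, Cxcl1, Cxcl2, Cxcl5, Cxcr4 and Ppbp. Another 4, Ccl28, Ccl6, Cxcl12 and Ccr9, had all adenoma samples below all epithelium samples, beside 10.2% of genes. The differences against tumor-bearing epithelium are drawn in the plot of differences.

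**Figure D2:**
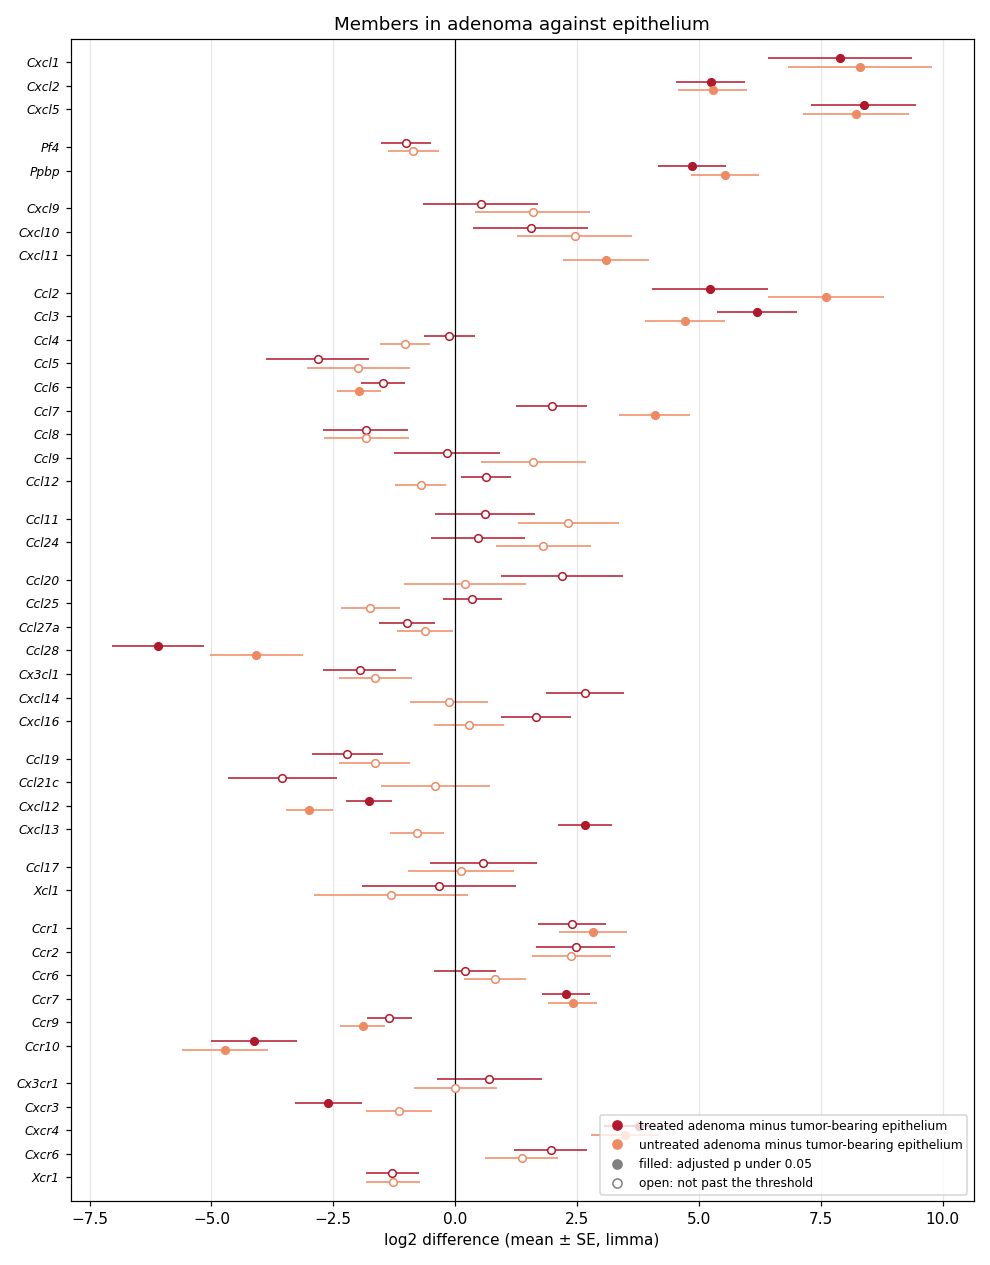
Log2 difference (mean and SE from limma, horizontal axis) of the members tested, for treated adenoma minus tumor-bearing epithelium (dark red) and untreated adenoma minus tumor-bearing epithelium (orange), with genes grouped by role down the page. Filled points passed an adjusted p of 0.05. The 3 Cxcr2 ligands, Ppbp, Ccl2 and Ccl3 lie to the right of 0 with filled points in both comparisons, and Ccl28 and Ccr10 to the left.

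The CXC ligands of the neutrophil receptor Cxcr2 were higher in adenomas. All 3 tested members of the list, Cxcl1, Cxcl2 and Cxcl5, rose in both adenoma groups, with a median log2 difference of 7.90 in treated and 8.22 in untreated adenomas. Cxcl15, the 4th, entered no test. These genes lie beside each other on chromosome 5 (in RefSeq order Cxcl5, Ppbp, Pf4, Cxcl15, Cxcl1, Cxcl2). The RefSeq sequences before the starts of Cxcl1 and Cxcl2 are shown because both genes rose together and share a match to the NF-kappaB consensus; those of Ppbp, a neighbour that also rose, and of Ccl28, which fell, are shown beside them. Each is the 250 bases before the annotated start (GRCm38.p6, plus strand), in lower case with any match to GGGAATTTCC, on either strand, in capitals. These letters are the match of the consensus in the Cxcl1 sequence itself, so that their presence there follows from the choice.
Cxcl1, chr5:90890995-90891244: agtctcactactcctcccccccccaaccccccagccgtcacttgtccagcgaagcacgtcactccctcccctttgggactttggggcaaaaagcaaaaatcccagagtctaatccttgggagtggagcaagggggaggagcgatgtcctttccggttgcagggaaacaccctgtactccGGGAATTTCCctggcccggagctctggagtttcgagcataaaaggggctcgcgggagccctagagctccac
Cxcl2, chr5:90903649-90903898: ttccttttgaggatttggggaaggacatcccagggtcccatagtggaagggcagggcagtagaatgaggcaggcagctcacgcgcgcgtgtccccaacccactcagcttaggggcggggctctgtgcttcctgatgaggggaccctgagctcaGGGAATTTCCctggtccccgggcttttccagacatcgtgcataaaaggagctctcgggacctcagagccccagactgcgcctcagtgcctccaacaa
Ppbp, chr5:90768268-90768517: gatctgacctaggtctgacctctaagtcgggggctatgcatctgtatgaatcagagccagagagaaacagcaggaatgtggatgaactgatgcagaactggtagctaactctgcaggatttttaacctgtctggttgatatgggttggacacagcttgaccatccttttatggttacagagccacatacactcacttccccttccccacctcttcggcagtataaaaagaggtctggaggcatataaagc
Ccl28, chr13:119623569-119623818: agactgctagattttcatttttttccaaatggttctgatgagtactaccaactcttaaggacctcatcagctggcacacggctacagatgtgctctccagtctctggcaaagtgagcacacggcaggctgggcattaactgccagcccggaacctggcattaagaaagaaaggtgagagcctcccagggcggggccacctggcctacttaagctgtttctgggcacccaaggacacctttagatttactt
The match lies 71 to 62 bases before the start of Cxcl1 and 97 to 88 bases before that of Cxcl2. The 250 bases of the 2 genes were identical at 62.3% of aligned positions. Ppbp, which lacks the match, was not far below, at 59.6% with Cxcl1 and 54.1% with Cxcl2. Ccl28 gave 47.5% with Cxcl1 and 50.9% with Cxcl2. The motif occurred in 28 of 32851 RefSeq promoters (0.0852%). Of the 38 members with a promoter in that table, 3 held it, Ccr3, Cxcl1 and Cxcl2. The 13 members without one, among them Cxcl5, Ccl2, Ccl7 and Ccr10, could not be searched. A looser form, the NF-kappaB consensus, was in 3.9% of all promoters and in those of 7 members, Ccl20, Ccl9, Ccr3, Ccr6, Cxcl1, Cxcl10 and Cxcl2. Of these 7, only Cxcl1 and Cxcl2 were called in any comparison, and Ccr3 entered no test. These are matches of letters only, and binding was not measured.

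Cxcl1, a neutrophil attractant, is read by 1 probe (chromosome 5, 90882059 to 90882118, mouse build mm7, the build of the array's design; exon or UTR positions for that build were not used here). Its level was 2.44 and 1.29 in treated adenomas, 3.37 and 1.19 in untreated adenomas, -7.30, -3.39 and -7.42 in tumor-bearing epithelium and -4.02, -3.11 and -7.60 in tumor-free epithelium. Every adenoma sample lay above every epithelium sample. The difference from tumor-bearing epithelium was 7.90 ± 1.48 (SE) in treated adenomas (239-fold, adjusted p = 0.00698) and 8.31 ± 1.48 in untreated adenomas (318-fold, adjusted p = 0.00657, limma). The probe passed background on 1 of 4 arrays of tumor-bearing epithelium, so the folds rest on a dim group. Without untreated adenoma arrays 1 and 2 its call against untreated adenomas ended (adjusted p = 0.067), and without treated array 1 that against treated adenomas ended (adjusted p = 0.0701).

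Cxcl5, a further Cxcr2 ligand (probe at chromosome 5, 90732453 to 90732512, mm7), had levels of 3.83 and 2.55 in treated adenomas, 3.53 and 2.53 in untreated adenomas, -7.58, -3.29 and -4.71 in tumor-bearing epithelium and -1.29, -3.14 and -2.00 in tumor-free epithelium. The adenoma samples were all above the epithelium samples, by at least the gap between 2.53 and -1.29. The difference from tumor-bearing epithelium was 8.38 ± 1.08 (334-fold, adjusted p = 0.000951) in treated and 8.22 ± 1.08 (299-fold, adjusted p = 0.00145) in untreated adenomas. The probe passed background on 2 of 4 arrays of tumor-bearing epithelium, and the sample at -7.58 (arrays 1 and 3) was well above background on neither, so these folds rest in part on values near background. Cxcl5 was called in both comparisons under every alternative that was run.

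Cxcl2, the macrophage inflammatory protein 2 gene (probe at chromosome 5, 90894748 to 90894807, mm7), had levels of -2.22 and -1.27 in treated adenomas, -1.73 and -1.67 in untreated adenomas, -5.58, -7.95 and -7.44 in tumor-bearing epithelium and -7.38, -8.35 and -8.72 in tumor-free epithelium. The groups of adenoma and epithelium were separate. It differed by 5.24 ± 0.71 (37.8-fold, adjusted p = 0.00117) in treated and 5.28 ± 0.71 (38.9-fold, adjusted p = 0.00158) in untreated adenomas, with 1 of 4 arrays of tumor-bearing epithelium above background. The size varied with the arrays compared. Within scan date 2 the log2 difference was 1.75 in treated and 2.23 in untreated adenomas. It was 6.25 in treated adenomas within date 4 and 5.84 in untreated adenomas within date 1.

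Ppbp encodes platelet basic protein, the precursor of a platelet-derived Cxcr2 ligand. Its levels were -2.90 and -1.45 in treated adenomas, -0.62 and -2.37 in untreated adenomas, -7.43, -6.27 and -7.39 in tumor-bearing epithelium and -5.35, -6.51 and -5.33 in tumor-free epithelium. No adenoma sample overlapped an epithelium sample. As no array of tumor-bearing epithelium passed background, Ppbp was at least 10.1-fold higher in treated adenomas (adjusted p = 0.00164) and at least 16.3-fold higher in untreated adenomas (adjusted p = 0.00119). These bounds set the adenoma mean against the lowest signal well above background on each dim array, or the probe's own signal where that was higher. An adjusted p beside a bound, here and below, comes from the limma fit of the measured levels, dim ones included. It does not test the bound itself. Its neighbour Pf4, platelet factor 4, did not pass: the difference was -1.01 ± 0.51 in treated and -0.86 ± 0.52 in untreated adenomas (adjusted p = 0.212 and 0.297).

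**Figure D3:**
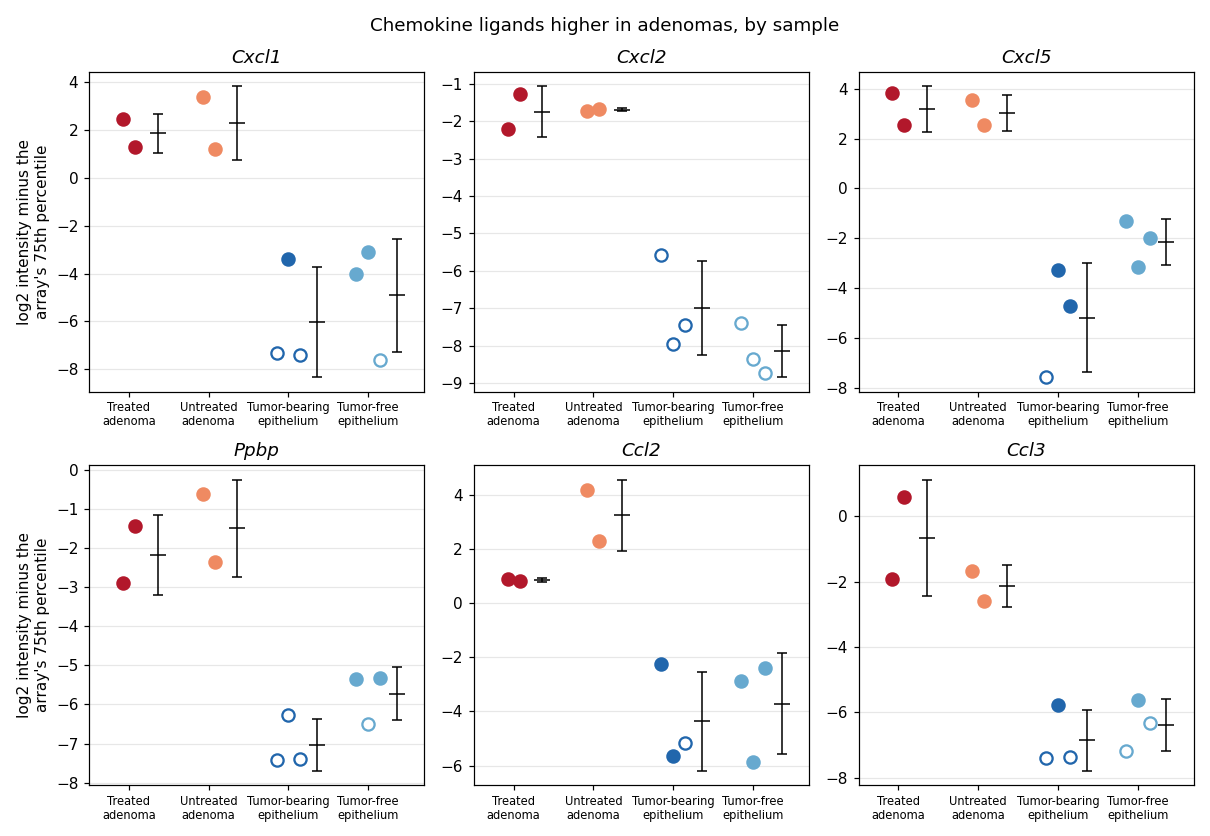
Levels of Cxcl1, Cxcl2, Cxcl5, Ppbp, Ccl2 and Ccl3 by sample (log2 intensity minus the array's 75th percentile; vertical scales differ between panels). Points are samples, filled where every array of the sample was well above background, and black bars give the group mean and SD. In each panel the 4 adenoma samples lie above all 6 epithelium samples.

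Neutrophil markers moved with these ligands. Of 9 neutrophil markers on the array, 6 were tested and 4 were higher in each adenoma group. Their summed intensity was 16.0 to 49.6 in treated adenomas and 19.8 to 23.8 in untreated adenomas, against 0.146 to 0.625 in tumor-bearing epithelium and 0.205 to 0.549 in tumor-free epithelium. Most of the sum in adenomas came from S100a9, so it mainly follows that gene. S100a9 was at 3.73 and 5.20 in treated adenomas, 4.07 and 3.87 in untreated adenomas and -7.38, -5.17 and -5.90 in tumor-bearing epithelium. S100a8, which encodes a major protein of neutrophil cytoplasm, had levels of 0.84 and 2.85 in treated adenomas, 1.84 and 1.05 in untreated adenomas and -7.22, -8.19 and -6.58 in tumor-bearing epithelium. S100a8, Elane, Ngp and Retnlg passed background on no array of tumor-bearing epithelium, Elane on none of the treated adenomas, and Ngp and Camp on none of the untreated adenomas. The part of these cells in the rise of the ligands was not tested.

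The receptor of these ligands, Cxcr2, is listed on the array as Il8rb. It averaged -2.74 ± 0.74 in treated adenomas and -3.56 ± 1.64 in untreated adenomas (SD, n = 2 each), against -7.62 ± 0.59 (n = 3) in tumor-bearing epithelium, where no array passed background. Cxcr2 was thus at least 6.87-fold higher in treated adenomas (adjusted p = 0.00143) and at least 3.9-fold higher in untreated adenomas (adjusted p = 0.00485, limma). Of 27 listed NF-kappaB genes and cytokines that induce chemokines, 4 were higher and 1 lower of 25 tested in treated adenomas, and 6 were higher and 0 lower of 27 in untreated adenomas. Their median log2 difference was 0.60 and 0.75.

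Il1b, the interleukin 1 beta gene, had levels of 2.44 and 3.19 in treated adenomas, 3.41 and 2.47 in untreated adenomas, -1.99, -3.65 and -4.71 in tumor-bearing epithelium and -2.23, -3.45 and -4.18 in tumor-free epithelium. It was 76.8-fold higher in treated adenomas (adjusted p = 0.000951) and 83.7-fold higher in untreated adenomas (adjusted p = 0.00124). Il1a, which encodes the alpha form, was at least 1.27-fold and Il6, the interleukin 6 gene, at least 8.36-fold higher in treated adenomas. In untreated adenomas Il1a was at least 3.73-fold, Il6 at least 28.7-fold and Il17a, the interleukin 17A gene, at least 3.93-fold higher. Il17rc, an interleukin 17 receptor subunit, fell by 2.87 on the log2 scale in treated adenomas (adjusted p = 0.0341).

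Inflammatory CC ligands draw monocytes, macrophages and T cells. Of these, 2 rose and 0 fell of 9 tested in treated adenomas, beside 13.6% of all genes called. In untreated adenomas 3 rose and 1 fell of 9, beside 12.0% of all genes. The medians, -0.12 and -0.71, lay below zero, so the rises were those of single members. Ccl2 attracts monocytes through Ccr2 and was read from 10 spots of 1 probe (chromosome 11, 82118723 to 82118782, mm7). Its level was 0.91 and 0.82 in treated adenomas, 4.19 and 2.32 in untreated adenomas, -2.26, -5.65 and -5.15 in tumor-bearing epithelium and -2.89, -5.86 and -2.38 in tumor-free epithelium. The adenoma samples were all above the epithelium samples. The difference from tumor-bearing epithelium was 5.22 ± 1.19 (37.3-fold, adjusted p = 0.0178) in treated and 7.61 ± 1.19 (195-fold, adjusted p = 0.00338) in untreated adenomas. In treated adenomas the call ended without treated array 1, without treated arrays 2, 3 and 4 together, and without array 2 of the tumor-bearing epithelium (adjusted p up to 0.11).

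Ccl3, a ligand of Ccr1 (probe at chromosome 11, 83717761 to 83717820, mm7), had levels of -1.91 and 0.60 in treated adenomas, -1.67 and -2.60 in untreated adenomas, -7.41, -5.78 and -7.37 in tumor-bearing epithelium and -7.20, -5.61 and -6.34 in tumor-free epithelium. The adenoma and epithelium samples did not overlap. It differed by 6.20 ± 0.82 (73.6-fold, adjusted p = 0.00106) in treated and 4.72 ± 0.82 (26.3-fold, adjusted p = 0.00574) in untreated adenomas, with 1 of 4 arrays of tumor-bearing epithelium above background. The untreated call ended without untreated arrays 1 and 2 (adjusted p = 0.0577). Ccl4, its neighbour on chromosome 11 and a macrophage inflammatory protein like it, was at 3.51 and 4.88 in treated adenomas, 3.80 and 2.78 in untreated adenomas and 4.18, 4.61 and 4.17 in tumor-bearing epithelium. These groups overlapped, and the differences of -0.12 ± 0.52 and -1.03 ± 0.52 did not pass.

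Ccl7, a ligand of Ccr2 beside Ccl2 on chromosome 11, had levels of 0.01 and -2.02 in treated adenomas, 1.65 and 0.56 in untreated adenomas and -3.42, -3.67 and -1.87 in tumor-bearing epithelium. Both untreated samples lay above the epithelium, while a treated sample lay within its range. The difference was 4.09 ± 0.73 (17.1-fold, adjusted p = 0.00678) in untreated adenomas and 1.98 ± 0.73 in treated adenomas, where it did not pass (adjusted p = 0.103). Without untreated arrays 1 and 2 the untreated call ended (adjusted p = 0.0678). The second probe of Ccl7 gave 2.12 in treated and 4.72 in untreated adenomas. The difference between both adenoma groups themselves was -2.11 ± 0.81 (treated minus untreated, adjusted p = 0.343), so the calls are not shown to differ.

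Ccl6, a Ccr1 ligand of mouse myeloid cells, lay lower in adenomas, at 4.33 and 5.17 in treated and 3.95 and 4.58 in untreated adenomas, against 6.71, 6.14 and 5.88 in tumor-bearing epithelium and 6.27, 6.20 and 5.88 in tumor-free epithelium. The groups were separate. It fell by 1.98 on the log2 scale in untreated adenomas (SE 0.45, adjusted p = 0.0209), and the difference of -1.49 ± 0.45 in treated adenomas did not pass (adjusted p = 0.0547). The untreated call ended without either untreated sample, without arrays 1 and 3 or array 2 of the tumor-bearing epithelium, and without the near-identical pair (adjusted p up to 0.148). Ccl5, Ccl8, Ccl9 and Ccl12, the other members of this list, passed in neither comparison; their differences ran from -2.82 (Ccl5, treated) to 1.60 (Ccl9, untreated).

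Of 12 macrophage and dendritic cell markers tested, 0 were higher and 1 lower in each adenoma group, beside 13.6% and 12.0% of all genes called. Their summed intensity of 67.5 to 131 in treated adenomas and 67.2 to 88.4 in untreated adenomas overlapped that of 42.9 to 99.7 in tumor-bearing epithelium. Cd163 passed background on no array of untreated adenoma.

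The other ligands drawn by inflammation were less separated. Cxcl9, Cxcl10 and Cxcl11, interferon-induced ligands of Cxcr3, gave 0 calls of 2 tested in treated adenomas and 1 of 3 in untreated adenomas. Cxcl11 was at -8.18 and -8.17 in treated adenomas, -4.50 and -4.31 in untreated adenomas, -7.20, -8.17 and -7.16 in tumor-bearing epithelium and -4.95, -8.45 and -5.47 in tumor-free epithelium. Untreated adenomas lay above the other groups, and no array of treated adenoma or tumor-bearing epithelium passed background. Cxcl11 was at least 2.16-fold higher in untreated adenomas than in tumor-bearing epithelium (adjusted p = 0.0474), a call that was lost in 8 of 20 fits that left out arrays (adjusted p up to 0.23), among them those without either sample of untreated adenoma or of treated adenoma, without tumor-bearing arrays 1 and 3 or array 2, and without tumor-free arrays 3 and 4. Ccl11 and Ccl24, eotaxins that attract eosinophils through Ccr3, gave differences of 0.61 ± 1.03 and 0.47 ± 0.97 in treated and 2.32 ± 1.03 and 1.81 ± 0.97 in untreated adenomas and were not called.

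Among the 7 ligands of mucosal and skin epithelium, 1 fell in each adenoma group and 0 rose. As a count this is near the share of all genes called, 13.6% in treated and 12.0% in untreated adenomas. That member was Ccl28 (probe placed on unassigned sequence, Un_random, in mm7; its RefSeq gene is on chromosome 13), whose promoter letters are given above. Its level was -4.71 and -6.33 in treated adenomas, -2.81 and -4.19 in untreated adenomas, 1.70, 1.57 and -1.51 in tumor-bearing epithelium and 1.37, 1.45 and 0.51 in tumor-free epithelium. All adenoma samples lay below all epithelium samples. The difference from tumor-bearing epithelium was -6.10 ± 0.95 (68.6-fold lower, adjusted p = 0.00266) in treated and -4.08 ± 0.95 (17.0-fold lower, adjusted p = 0.0227) in untreated adenomas. The untreated call ended without either untreated sample, without the arrays 1 and 3 or array 2 of the tumor-bearing epithelium, and without the near-identical pair (adjusted p up to 0.197), while the treated call held in each of 20 such fits.

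Ccr10, the receptor of Ccl28, was at -8.69 and -8.04 in treated adenomas, -8.65 and -9.30 in untreated adenomas, -3.46, -5.08 and -4.19 in tumor-bearing epithelium and -6.25, -5.42 and -8.76 in tumor-free epithelium. It passed background on no adenoma array, on 4 of 4 arrays of tumor-bearing epithelium and on 2 of 4 of tumor-free epithelium. Ccr10 was at least 4.10-fold lower in treated adenomas (adjusted p = 0.0131) and at least 5.32-fold lower in untreated adenomas (adjusted p = 0.00781) than in tumor-bearing epithelium. The treated call ended without either treated sample (adjusted p up to 0.107), and the untreated call without untreated array 3 (adjusted p = 0.0901). Markers of B and plasma cells were also lower in adenomas than in tumor-bearing epithelium. Their summed intensity was 0.273 to 0.318 in treated adenomas and 0.492 to 1.02 in untreated adenomas, against 22.8 to 45.8 in tumor-bearing epithelium. In tumor-free epithelium the sum was 21.7 to 31.1, although Ccr10 passed background on only 2 of 4 arrays there. Of 7 such markers on the array, 5 were tested, and 4 were lower in treated and 3 in untreated adenomas. Tnfrsf17 passed background on no array of treated adenoma, and Ms4a1 on none of untreated adenoma or epithelium. Mzb1, a gene of antibody-secreting cells, was at -5.45 and -5.66 in treated adenomas, -5.13 and -4.25 in untreated adenomas and 1.86, 0.79 and 0.69 in tumor-bearing epithelium. In tumor-free epithelium Mzb1 was at 0.45, 0.61 and -0.26. The part of these cells in the fall of Ccr10 was not tested.

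The differentiated epithelium that lines the normal colon also differed. The absorptive colonocyte markers summed to 28.8 to 67.7 in treated adenomas and 71.8 to 104 in untreated adenomas, against 210 to 499 in tumor-bearing epithelium, with 7 and 5 of 8 tested lower and 0 higher. Car4 and Alpi passed background on no array of treated adenoma. The goblet cell markers summed to 101 to 161 and 208 to 264, against 480 to 676, with 5 and 2 of 7 lower. Their part in the fall of Ccl28 was not tested.

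The remaining epithelial ligands were not called against tumor-bearing epithelium. Cx3cl1, the membrane-bound ligand of Cx3cr1, gave -1.96 ± 0.75 in treated and -1.64 ± 0.75 in untreated adenomas. Cxcl14 gave 2.67 ± 0.80 (adjusted p = 0.0526) and -0.13 ± 0.80. Ccl20, the ligand of Ccr6, gave 2.19 ± 1.26 and 0.20 ± 1.26, and Ccl25, the ligand of Ccr9, 0.35 ± 0.61 and -1.74 ± 0.61. For Cxcl16, the ligand of Cxcr6, the probe used gave 1.65 ± 0.72 and 0.29 ± 0.72, while its second probe gave 1.67 and 3.05 (adjusted p = 0.219 and 0.0509 over all probes). The probes disagreed in size for the untreated adenomas. Ccl27a, a ligand of Ccr10 made in skin, gave -0.99 ± 0.58 and -0.62 ± 0.58; near-identical copies of this gene exist in the mouse genome, and the array may not tell them apart.

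Of the 4 homeostatic ligands of lymphoid tissue and stroma, 1 rose and 1 fell in treated adenomas, beside 13.6% of all genes called. In untreated adenomas 0 rose and 1 fell, beside 12.0% of all genes. Cxcl12, the stromal ligand of Cxcr4 (probe at chromosome 6, 117207552 to 117207611, mm7), was at 1.59 and 1.15 in treated adenomas, 0.54 and -0.24 in untreated adenomas, 3.72, 3.06 and 2.62 in tumor-bearing epithelium and 3.32, 3.13 and 2.51 in tumor-free epithelium. The adenoma samples lay below all epithelium samples. It fell by 1.77 on the log2 scale in treated adenomas (SE 0.48, adjusted p = 0.0384) and fell by 2.99 in untreated adenomas (SE 0.49, adjusted p = 0.00407). A second, dimmer probe gave -2.58 and -2.54. The treated call of Cxcl12 held in 14 of 20 fits that left out arrays (adjusted p up to 0.159); treated array 1, treated arrays 2, 3 and 4, tumor-bearing arrays 1 and 3, tumor-bearing array 2, tumor-free array 2 and the near-identical pair each ended it. The untreated call ended without untreated array 3 (adjusted p = 0.0613).

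Stromal markers differed in part. Fibroblast markers summed to 112 to 182 in treated and 104 to 133 in untreated adenomas, against 99.1 to 146 in tumor-bearing epithelium, and 0 of 8 were called. Smooth muscle markers summed to 23.4 to 30.7 in treated and 12.2 to 14.3 in untreated adenomas, against 47.4 to 59.8, with 2 of 7 and 5 of 8 tested lower. Their part in the fall of Cxcl12 was not tested.

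Cxcl13, the ligand that gathers B cells in follicles through Cxcr5 (probe at chromosome 5, 95174192 to 95174251, mm7), was at 0.58 and 0.89 in treated adenomas, -3.39 and -2.01 in untreated adenomas, -1.82, -1.41 and -2.55 in tumor-bearing epithelium and -1.55, -1.31 and -2.36 in tumor-free epithelium. Both treated samples lay above every other sample. Against tumor-bearing epithelium Cxcl13 rose 6.31-fold in treated adenomas (2.66 ± 0.56, adjusted p = 0.0121), and the difference was -0.78 ± 0.56 in untreated adenomas. The call ended without treated array 1 and without treated arrays 2, 3 and 4 (adjusted p up to 0.0745).

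Ccl19 and Ccl21c, ligands of Ccr7, gave -2.21 ± 0.73 and -3.55 ± 1.12 in treated adenomas and -1.65 ± 0.73 and -0.41 ± 1.12 in untreated adenomas and were not called on the probes used. Both have near-identical copies in the mouse genome that a probe may not tell apart. A second, dimmer Ccl19 probe gave -3.25 in treated adenomas, which passed over all probes (adjusted p = 0.0467, limma), and -1.87 in untreated adenomas (adjusted p = 0.221). It was above background on 0 treated and 4 tumor-bearing arrays. Ccl17, a ligand of Ccr4, and Xcl1, the ligand of Xcr1, also passed in neither comparison.

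**Figure D4:**
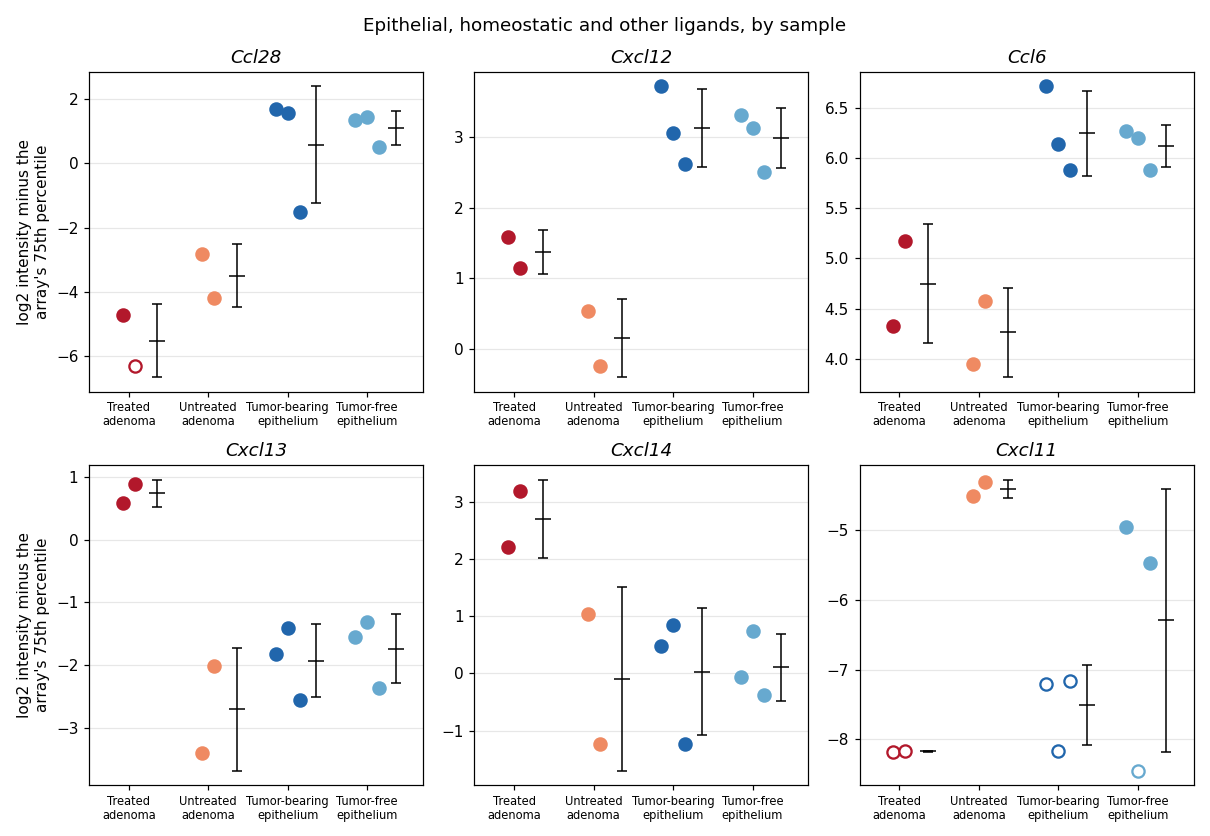
Levels of Ccl28, Cxcl12, Ccl6, Cxcl13, Cxcl14 and Cxcl11 by sample (log2 intensity minus the array's 75th percentile; vertical scales differ between panels). Points are samples, filled where every array was well above background, and bars give the mean and SD. Ccl28, Cxcl12 and Ccl6 are lower in all 4 adenoma samples than in any epithelium sample, and Cxcl13 is higher in the 2 treated adenoma samples, at 0.58 and 0.89, than in the rest.

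Among the 11 CC receptors, 2 rose and 1 fell of 7 tested in treated adenomas, beside 13.6% of all genes called. In untreated adenomas 3 rose and 2 fell of 7, beside 12.0% of all genes. Ccr7, which guides dendritic and T cells to lymph nodes, was at -4.87 and -4.87 in treated and -4.77 and -4.68 in untreated adenomas, against -7.46, -6.56 and -7.40 in tumor-bearing epithelium. No epithelium array of either group passed background. The log2 difference from tumor-bearing epithelium was 2.27 in treated (adjusted p = 0.015) and 2.41 in untreated adenomas (adjusted p = 0.0134, limma). As a bound, Ccr7 was at least 1.57-fold higher in treated and at least 1.73-fold higher in untreated adenomas. Each call of Ccr7 ended without either sample of its adenoma group (adjusted p up to 0.107).

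Ccr1, a receptor of Ccl3 and Ccl6 on myeloid cells, was at -5.24 and -4.60 in treated adenomas and -3.75 and -5.22 in untreated adenomas. In tumor-bearing epithelium arrays 1 and 2 were left out for outlier flags, which left array 3 at -7.56 and array 4 at -7.07. Ccr1 thus rests on 2 arrays of that group, both below background. It was at least 1.85-fold higher in untreated adenomas (adjusted p = 0.033), and it did not pass in treated adenomas (adjusted p = 0.0539). The untreated call ended without either untreated sample, without array 3 or arrays 1 and 3 of the tumor-bearing epithelium, and without the near-identical pair (adjusted p up to 0.189). Ccr2, the receptor of Ccl2 and Ccl7, was at -2.07 and -3.12 in treated adenomas, -2.47 and -2.91 in untreated adenomas, -4.82, -5.47 and -4.92 in tumor-bearing epithelium and -2.20, -5.13 and -5.00 in tumor-free epithelium. The adenoma samples lay above tumor-bearing epithelium but overlapped tumor-free epithelium through its array 1. Its difference from tumor-bearing epithelium was 2.47 ± 0.81 in treated and 2.38 ± 0.81 in untreated adenomas and missed the threshold (adjusted p = 0.0713 and 0.0858). Ccr9, the receptor of Ccl25 on gut-homing lymphocytes, was at -4.94 and -3.78 in treated and -5.07 and -4.76 in untreated adenomas, against -3.39, -2.68 and -2.96 in tumor-bearing epithelium and -2.88, -3.23 and -3.31 in tumor-free epithelium. The groups of adenoma and epithelium did not overlap. Ccr9 fell by 1.90 on the log2 scale in untreated adenomas (adjusted p = 0.026), and -1.35 ± 0.46 in treated adenomas did not pass (adjusted p = 0.08). Its probe passed background on both unflagged untreated arrays, and untreated array 2 was left out for an outlier flag. The untreated call was lost in 6 of 20 fits that left out arrays (adjusted p up to 0.146), those without untreated array 1, arrays 1 and 2 or array 3, without array 2 or array 3 of the tumor-bearing epithelium, and without the near-identical pair. Ccr6 was not called.

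Among the 5 CXC, CX3C and XC receptors, 1 rose and 1 fell in treated adenomas, beside 13.6% of all genes called. In untreated adenomas 1 rose and 0 fell, beside 12.0% of all genes. Cxcr4, the receptor of Cxcl12 on many leukocytes and progenitor cells, was at -3.53 and -1.59 in treated adenomas, -2.38 and -3.27 in untreated adenomas, -6.48, -6.66 and -5.81 in tumor-bearing epithelium and -5.30, -7.14 and -6.59 in tumor-free epithelium. The adenoma samples were above all epithelium samples. Cxcr4 was at least 8.41-fold higher in treated adenomas (adjusted p = 0.00678) and at least 6.99-fold higher in untreated adenomas (adjusted p = 0.0117). The treated call ended without treated arrays 2, 3 and 4 (adjusted p = 0.0621) and the untreated call without either untreated sample (adjusted p up to 0.0984). Its second probe, above background on 9 of 15 arrays, averaged -7.00 in treated and -5.39 in untreated adenomas, against -6.86 in tumor-bearing epithelium, and its difference of 1.47 in untreated adenomas was not called, so the rise rests on 1 of the gene's probes. On the probes used, the transcript of the ligand Cxcl12 fell in both adenoma groups while that of the receptor Cxcr4 rose. The second Cxcr4 probe did not show this rise in treated adenomas.

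Cxcr3, the receptor of Cxcl9, Cxcl10 and Cxcl11 on T and natural killer cells, was at -5.38 and -4.76 in treated adenomas, -4.85 and -2.40 in untreated adenomas, -2.93, -2.25 and -2.24 in tumor-bearing epithelium and -2.87, -2.29 and -3.39 in tumor-free epithelium. Both treated samples lay below all epithelium samples, while 1 untreated sample lay within their range. It fell by 2.60 on the log2 scale in treated adenomas (SE 0.68, adjusted p = 0.0319), and -1.15 ± 0.68 in untreated adenomas did not pass. The treated call ended without either treated sample, without arrays 1 and 3 or array 2 of the tumor-bearing epithelium, and without the near-identical pair (adjusted p up to 0.206). T and natural killer cell markers summed to 2.58 to 5.84 in treated and 3.61 to 6.36 in untreated adenomas, against 4.97 to 5.83 in tumor-bearing epithelium. In each adenoma group 1 was higher and 1 lower, of 8 tested in treated and 10 in untreated adenomas. The shares of all genes called were 13.6% and 12.0%. Cd8a passed background on no array of treated adenoma. Cxcr6, Cx3cr1 and Xcr1 were not called; in Cx3cr1 treated array 1 was left out for an outlier flag.

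**Figure D5:**
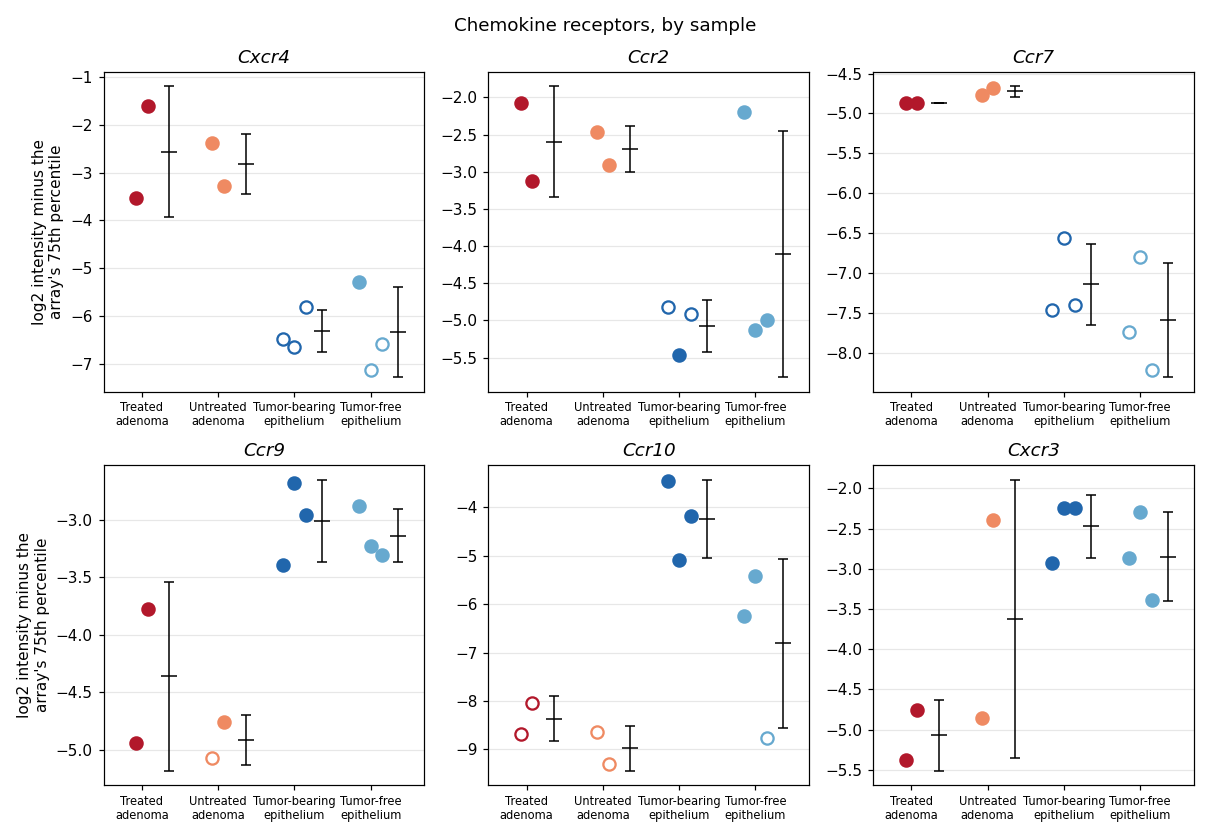
Levels of the receptors Cxcr4, Ccr2, Ccr7, Ccr9, Ccr10 and Cxcr3 by sample (log2 intensity minus the array's 75th percentile; vertical scales differ between panels). Points are samples, filled where every array was well above background, and bars give the mean and SD. Cxcr4 and Ccr7 are higher in all 4 adenoma samples than in any epithelium sample, and Ccr10 passes background in epithelium samples only.

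Other genes of the chemokine system also changed. Of 12 such genes on the array that are not members, 2 were higher and 3 lower of 9 tested in treated adenomas, and 2 were higher and 2 lower of 10 in untreated adenomas. Rarres2, which encodes the chemoattractant chemerin, fell by 3.08 on the log2 scale in treated adenomas (adjusted p = 0.0101) and by 3.52 in untreated adenomas (adjusted p = 0.00617). Its receptor gene Cmklr1 fell by 1.64 (adjusted p = 0.0223) and by 1.68 (adjusted p = 0.0236). Ackr3, an atypical receptor that binds Cxcl12 and takes it up without G protein signalling, was 6.72-fold higher in treated adenomas (adjusted p = 0.033) and was also called higher in untreated adenomas (adjusted p = 0.0352). Ackr1, an atypical receptor of red blood cells and venules, was lower in treated adenomas (adjusted p = 0.0353). Red blood cell markers summed to 0.268 to 0.324 in treated and 0.122 to 0.859 in untreated adenomas, against 5.24 to 11.4 in tumor-bearing epithelium. In each adenoma group 2 of 2 tested were lower, so this fall was not limited to treated adenomas. Tumor-free epithelium had sums of 0.457 to 4.57. Their part in the value of Ackr1 was not tested. Of the genes that carry the receptor's signal inside the cell, 0 of 21 tested were called in treated adenomas, beside 13.6% of all genes. In untreated adenomas 2 of 20 were called, both lower, beside 12.0% of all genes. These counts do not exceed the shares of all genes. One of the 2 was Arrb1, which encodes a beta-arrestin and fell by 2.64 (adjusted p = 0.0167); the other, Rgs10, encodes a regulator of G protein signalling.

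Treated adenoma and tumor-bearing epithelium share scan dates 2 and 4, and untreated adenoma and tumor-bearing epithelium share dates 1 and 2. The samples of each called member did not overlap between the groups compared, so its direction within a date follows from the call and is no further check. Within dates 2 and 4 the log2 difference of treated adenoma was 11.74 and 7.33 for Cxcl5 and -6.41 and -4.41 for Ccl28. Within dates 1 and 2 that of untreated adenoma was 8.82 and 11.42 for Cxcl5 and -4.17 and -4.78 for Ccl28.

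The counts of called members moved with those of all genes when arrays were left out. Without the near-identical epithelium pair, 12 members and 1573 of 16969 genes were called in treated adenomas, and 13 members and 1237 of 17365 genes in untreated adenomas. In the treated comparison 7 members were called without treated array 1 (875 genes) and 7 without treated arrays 2, 3 and 4 (1219 genes). In the untreated comparison 7 were called without untreated array 3 (601 genes) and 7 without untreated arrays 1 and 2 (945 genes). Without array 4 of the tumor-bearing epithelium 21 members and 3539 genes were called in treated adenomas, and 22 members and 3606 genes in untreated adenomas.

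The drug comparison asked whether a week of sulindac with atorvastatin altered these genes in adenomas. No member passed the threshold. Of 43 members tested, 0 were called between treated and untreated adenomas (limma), where 39 of 17593 genes (0.222%) were, 0.119% higher and 0.102% lower, and 8 members and 2107 genes had an unadjusted p under 0.05. The median log2 difference (treated minus untreated) was -0.14 over the members tested and 0.05 over all genes. With 2 samples a group the differences have wide errors, and a p that misses the threshold does not show that the levels were alike. Both drugs were given together and cannot be told apart.

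The lowest adjusted p was that of Cxcl13, whose levels are given above. Its difference was 3.44 ± 0.61 (10.8-fold, treated over untreated, adjusted p = 0.0724). The difference was 3.96 within scan date 2 and 2.87 within scan date 5. Without array 4 of the tumor-bearing epithelium, which enters through the shared estimate of spread, Cxcl13 passed. Cxcl11 was at least 3.66-fold lower in treated adenomas (adjusted p = 0.196), with 0 of 4 treated and 3 of 3 untreated arrays above background.

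Cxcl14, a ligand of epithelium and stroma, was at 2.22 and 3.19 in treated adenomas, against 1.04 and -1.23 in untreated adenomas, a difference of 2.80 ± 0.88 (adjusted p = 0.275). Ccl25 was at 1.14 and 0.91, against 0.01 and -2.14 (2.09 ± 0.67, adjusted p = 0.279), but its other 2 probes gave 0.54 and 0.34. Ccl21c was at -3.57 and -2.29 in treated adenomas, against 0.84 and -0.42 in untreated adenomas (-3.14 ± 1.23, adjusted p = 0.361). None of these genes passed. Ccl2 gave -2.38 ± 1.31 and Ccl28 -2.02 ± 1.05. The Cxcr2 ligands differed little between the adenoma groups, by -0.41 ± 1.63 for Cxcl1, -0.04 ± 0.78 for Cxcl2 and 0.16 ± 1.19 for Cxcl5, errors that leave room for a change of several-fold either way. Mast cell markers differed between these groups, with sums of 0.414 to 0.799 in treated and 3.42 to 4.82 in untreated adenomas and 1 of 5 tested lower; their part in these values was not tested. Mcpt2 and Tpsb2 passed background on no treated array.

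The last comparison set the epithelium of tumor-bearing mice against that of tumor-free mice, both labelled as given atorvastatin. Of 35 members tested, 0 were called (limma), beside 0% of 17612 genes, and 4 members and 501 genes had an unadjusted p under 0.05. The median difference (tumor-bearing minus tumor-free) was 0.23 over the members and 0.01 over all genes. The 4 members were Ccr10 (2.57 ± 0.78), Cxcl5 (-3.05 ± 0.96), Ccl8 (1.76 ± 0.77) and Ccl4 (1.07 ± 0.47), all with an adjusted p of 0.994. Cxcl5 passed background on 2 of 4 arrays of tumor-bearing and 4 of 4 of tumor-free epithelium, at -7.58, -3.29 and -4.71 against -1.29, -3.14 and -2.00. The groups came closest at array 2 of each, the near-identical pair. No scan date holds both epithelia, so scan date and host cannot be told apart here.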

How the data were processed

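RNA of laser microdissected colon cells was measured on 15 single-colour arrays. Per the labels' protocols, 10 ng of RNA was amplified in 2 rounds. Agilent Feature Extraction 9.5.3 read the scans, per the submitters' processing notes. The deposited intensity is its processed signal, background-subtracted within an array. The authors also deposited a table of log2 values. It served only as an alternative, because its 4 columns for tumor-bearing epithelium follow the scanner files of that group backwards.

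Levels are log2 intensities less the 75th percentile of the same array. Control spots (1639) and outlier-flagged spots were left out, spots of a probe averaged, and a gene with more than 1 probe was read from its brightest on average. Near-identical arrays of a group were averaged. Tested genes were those well above background throughout 1 or both of the groups compared, with at least 2 unflagged arrays. Differences were fitted over all 4 groups with limma 3.58.1 (R 4.3.3; 6 residual and 3.9 to 4.18 prior degrees of freedom). Tests were two-sided, p-values were adjusted over all genes by Benjamini and Hochberg's method, and the threshold was 0.05. The fit was tested on simulated data. Intensities give no counts, so the number of samples limits precision. The labels call the arrays of a condition biological replicates without tying them to animals, so p-values measure only the spread between these samples.

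Members and lists were chosen with earlier results of these data known. Called members are named, except 1 that is counted but not reported here, with members not called that illustrate their role, and up to 8 called related genes by moderated t. The lists were 9 of roles, 3 of related genes and 13 of cell type markers; markers are given where they moved with a result. Neighbours follow RefSeq order (GRCm38.p6), and promoters were read from RefSeq and aligned with Biopython 1.88. Alternatives covered background correction, normalization, dim-probe filter, probe choice, near-identical arrays, the value table, groups in the fit, scan date, slide, replicate number and leaving out arrays.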

Additional observations from a re-analysis of the deposited data

How the results depend on the processing

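No result for a member changed direction past the threshold under any alternative run. The count of called members depended on how the near-identical arrays were counted. With each array as its own sample it was 9 between treated and untreated adenomas (0 as reported), 32 for treated adenoma against tumor-bearing epithelium (14 as reported) and 29 for untreated adenoma (17 as reported). With scan date as a fixed block the counts were 8, 27 and 30, and with slide as a random block 10, 29 and 32. With the replicate block they were 12, 33 and 30; same-numbered arrays correlated between -0.185 and 0.463 in their deviations from the group means, with 7 of 21 above 0.1, so the numbers do not show pairing. These fits count near-identical arrays separately, and calls over all genes moved as well, to 2459 of 17593, 7316 of 16969 and 6894 of 17365 with each array its own sample, 2505, 5613 and 6837 with scan date, 2596, 6717 and 7856 with slide, and 2635, 7395 and 7461 with the replicate block, against 39, 2315 and 2077 as reported. With each set of near-identical arrays as a random block the count was 1 (Cxcl13) between the adenomas, beside 45 genes. It was 10 for untreated adenoma against tumor-bearing epithelium, beside 2248 genes. Leaving out arrays gave 0 to 1 member between the adenomas, 7 to 21 for treated and 7 to 22 for untreated adenoma against tumor-bearing epithelium, and 0 for the epithelia under every alternative run; scan date as a block could not be fitted there. Against tumor-bearing epithelium, Ccl3, Cxcl5 and Ppbp were called under every alternative in treated adenomas, and Ccl2, Cxcl5 and Ppbp in untreated adenomas. The causes of the other changes were not tested. Dim probes limit the folds of members with few epithelium arrays above background.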
